A study of Mus musculus with 6 samples.

Results

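Fos, Btg2, Dusp1 and Nr4a1, a set of 4 immediate early genes, were followed in bulk RNA of 6 mouse tumours, 3 grown from sgUhrf1 cells and 3 from sgNT cells. The tumours came from LG1233-OVA, a line labelled as murine lung cancer; the name marks it as carrying ovalbumin, a model antigen. The sgUhrf1 cells were stable lines made by CRISPR/Cas9 to lack Uhrf1, a chromatin protein known for helping to maintain DNA methylation, and are labelled as a knockout; the sgNT cells were the control, labelled WT. Both groups received 1000000 cells under the skin of female C57BL/6 mice, and tumours were taken on day 27; the age of the mice, the number of clones behind each line and the time between collection and RNA extraction are not stated in what was used here. The members were chosen by gene symbol, with earlier results of these data known. For each, 1 row of counts could be assigned, which for Nr4a1 touches only 68 bp of exon; the 4 stand among 10766 genes that could be named in the tables at all and 4579 of these that passed the filter on low counts. Because the tumours are whole tissue, a change in the number of cells of a type and a change in RNA per cell cannot be told apart.

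Immediate early genes are switched on within minutes of a stimulus without new protein synthesis, and their short-lived RNA is soon lost again. Growth factors acting through the ERK cascade, stress kinases, calcium and cAMP acting through CREB, and antigen receptors in lymphocytes all induce them, and so do wounding, warming and dissociation of tissue. Among the members, Fos encodes a subunit of the transcription factor AP-1, Nr4a1 encodes an orphan nuclear receptor induced by T cell receptor signals among others, Dusp1 encodes a phosphatase that switches MAP kinases off, and Btg2 encodes an antiproliferative cofactor of mRNA deadenylation and a known p53 target.

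The 250 bases before the RefSeq start of each member are shown because cAMP response elements in such promoters are a well known route of their induction. The sequences are those of RefSeq on GRCm38.p6, read 5′ to 3′ in the direction of transcription, with TGACG, the core of the cAMP response element, and its reverse complement CGTCA in capitals. The windows are chr12:85473640-85473889 (plus strand) for Fos, chr1:134079156-134079405 (minus) for Btg2, chr17:26508473-26508722 (minus) for Dusp1 and chr15:101266596-101266845 (plus) for Nr4a1.
Fos: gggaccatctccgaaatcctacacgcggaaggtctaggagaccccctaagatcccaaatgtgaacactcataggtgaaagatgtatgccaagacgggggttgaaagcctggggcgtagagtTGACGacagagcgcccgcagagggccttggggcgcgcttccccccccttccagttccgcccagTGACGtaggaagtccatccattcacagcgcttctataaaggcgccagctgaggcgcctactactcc
Btg2: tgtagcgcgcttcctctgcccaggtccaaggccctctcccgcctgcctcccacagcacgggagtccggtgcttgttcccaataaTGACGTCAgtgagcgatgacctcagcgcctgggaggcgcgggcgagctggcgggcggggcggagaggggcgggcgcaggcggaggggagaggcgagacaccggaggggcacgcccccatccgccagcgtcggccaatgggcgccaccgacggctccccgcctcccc
Dusp1: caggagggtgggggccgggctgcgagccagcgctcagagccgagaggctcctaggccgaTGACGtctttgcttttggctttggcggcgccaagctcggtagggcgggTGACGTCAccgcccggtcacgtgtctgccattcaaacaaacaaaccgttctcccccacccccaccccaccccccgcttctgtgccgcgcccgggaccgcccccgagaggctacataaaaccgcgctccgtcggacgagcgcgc
Nr4a1: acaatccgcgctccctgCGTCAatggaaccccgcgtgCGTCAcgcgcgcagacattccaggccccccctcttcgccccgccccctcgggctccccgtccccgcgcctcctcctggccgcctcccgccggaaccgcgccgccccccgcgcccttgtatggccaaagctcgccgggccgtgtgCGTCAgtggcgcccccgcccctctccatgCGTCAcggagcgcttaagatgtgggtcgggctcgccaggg

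The core was present in 4 of 4 member windows and in 17.8% of the 32851 promoter windows searched on both strands. In Fos it stood at 66 to 62 and at 129 to 125 bases before the start, and Nr4a1 held 4 copies, all on the reverse strand. The full element TGACGTCA, which contains the core on both strands, was found in Btg2 and Dusp1 and in 1.55% of all windows. The SP1 box GGGCGG was in 4 of 4 members and 32.7% of windows, overlapping itself in Btg2 by 1 base. The TATA box TATAAA was in Fos and in 12.4% of windows, and CCAAT was in Btg2 and in 33.8%. The AP-1 site TGANTCA and the CArG box bound by SRF were in 0 of 4 member windows, against 6.75% and 1.47% of all windows, which says only that these letters are not in these windows. Matches describe the sequence and do not show that a factor binds.

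Total counts were 5462555 to 6375069 per tumour. A gene with 0 counts could still be present at up to 3 counts, or 0.445 to 0.660 CPM by tumour (counting error only), and each member lay above this in every tumour. The row names in the tables follow another genome build than the reads, so genes are named here by the GRCm38 exons under the counted intervals. The targeted gene, Uhrf1, had 121, 73.0 and 89.9 CPM in sgUhrf1 tumours, against 133, 136 and 98.2 CPM in sgNT tumours, over 690 bp of its exons; the groups overlapped, with a log2 fold change of -0.37 ± 0.23 (edgeR adjusted p = 0.227). The cut site is not stated, and host cells can also supply this RNA, so its level does not check the knockout. In each tumour the epithelial genes Krt7 and Cdh1 were present, at higher levels in sgUhrf1 tumours. Krt7 had 831, 1425 and 1203 CPM there, against 189, 87.0 and 19.5 CPM in sgNT tumours. Cdh1 had 847, 1381 and 901 CPM, against 246, 159 and 135 CPM. Their log2 fold changes were 3.55 ± 0.66 and 2.53 ± 0.29 (edgeR adjusted p = 0.00347 and 0.000408). The surfactant gene Sftpd was below 1 CPM in the sgNT tumours (0.158, 0.741 and 0.177). It stood at 8.68, 64.9 and 56.7 CPM in the sgUhrf1 tumours. CPM are counts per 1000000 on library sizes scaled by the TMM method, and log2 fold changes compare sgUhrf1 with sgNT.

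The rows of all 4 members rose in sgUhrf1 tumours. Log2 fold changes were 1.49 ± 0.25 (SE) for Btg2, 1.37 ± 0.31 for Fos and 1.18 ± 0.28 for Dusp1. The row of Nr4a1 was at 1.90 ± 0.57, but only 1.92% of its length is Nr4a1 exon and its call was lost in 5 of 16 alternatives. In linear terms these are rises of 2.81-fold for Btg2, 2.59-fold for Fos, 2.26-fold for Dusp1 and 3.74-fold for the Nr4a1 row. The median over the 4 was 1.43, against 0.019 over all 10503 rows tested. Because the members were chosen with earlier results of these data known, this difference may follow from the choice. At the threshold used, an adjusted p of 0.05 in edgeR's quasi-likelihood test with Benjamini-Hochberg adjustment, 39.9% of all tested rows passed, 20.2% higher and 19.7% lower in sgUhrf1 tumours. Among rows that stand for a named gene, 20.6% were higher and 21.5% lower. A rise of a single gene was therefore common in this comparison.

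**Figure D1:**
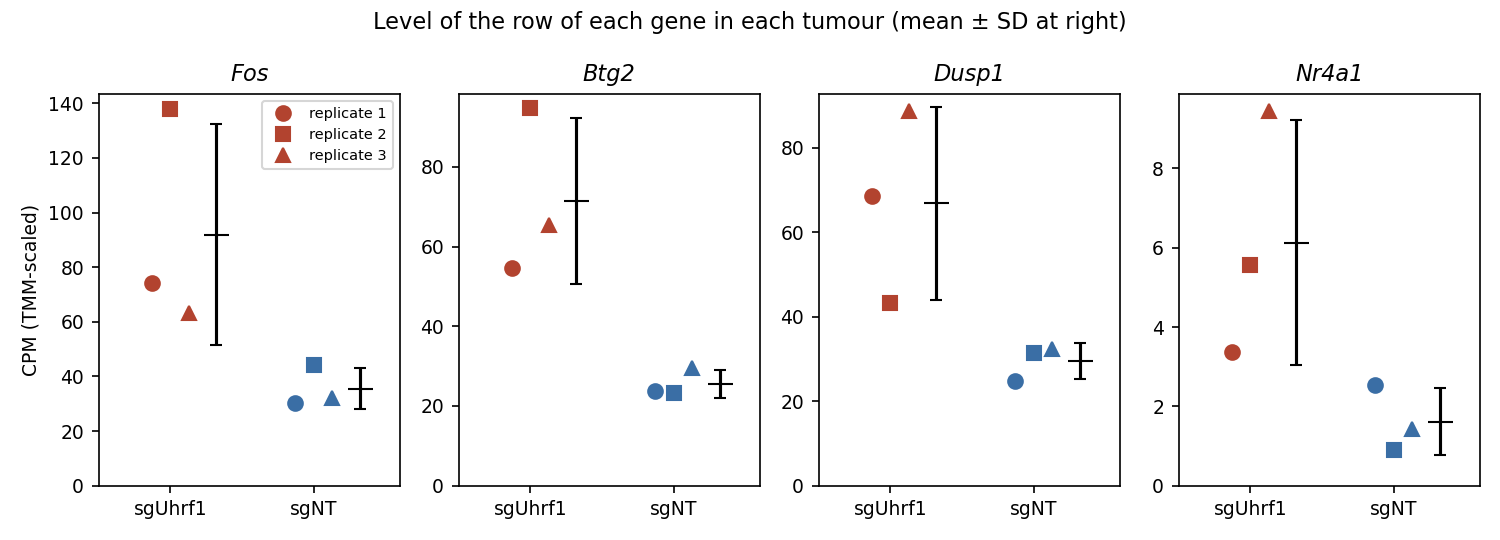
Level of the row of each gene in each tumour, in TMM-scaled CPM on a linear axis that starts at 0 and differs between panels; symbols mark the replicate number, bars the mean ± SD of 3 tumours. For each gene the lowest sgUhrf1 tumour lies above the highest sgNT tumour, closest for Nr4a1 (3.36 against 2.53 CPM).

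Fos (chromosome 12, 85473890 to 85477273, plus strand) had 74.2, 138 and 63.3 CPM in sgUhrf1 tumours 1 to 3, against 30.2, 44.0 and 32.1 CPM in sgNT tumours 1 to 3. The groups did not overlap, as was also so with sgUhrf1 higher for 26.6% of all tested rows, and sgUhrf1 tumour 2 stood far above the others. The means were 91.9 ± 40.4 and 35.4 ± 7.5 CPM (SD, n = 3 each), with an edgeR adjusted p of 0.00802. Its row covers 637 bp of the last of 4 exons, 572 bp of them coding, and the rest of the listed intervals (482 bp) lie outside the gene. Without sgUhrf1 tumour 2 the log2 fold change was 0.94 (edgeR adjusted p = 0.0168), the lowest of 17 alternatives.

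Btg2 (chromosome 1, 134075170 to 134079120, minus strand) had 54.5, 94.8 and 65.3 CPM in sgUhrf1 tumours, against 23.8, 23.3 and 29.4 CPM in sgNT tumours. The groups did not overlap, and as for Fos the highest value was that of sgUhrf1 tumour 2. The means were 71.5 ± 20.8 and 25.5 ± 3.4 CPM (SD, n = 3 each), with an edgeR adjusted p of 0.00210, the smallest among the members. The 503 bp of exon under the row lie in both exons, with 142 bp coding, 67 bp in the 5′ and 294 bp in the 3′ untranslated part. A further 197 bp are intronic and 1115 bp lie outside the gene.

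Dusp1 (chromosome 17, 26505590 to 26562128, minus strand) had 68.5, 43.2 and 88.6 CPM in sgUhrf1 tumours, against 24.7, 31.3 and 32.4 CPM in sgNT tumours. The groups did not overlap, but here sgUhrf1 tumour 2 was the lowest of its group and tumour 3 the highest. The means were 66.8 ± 22.8 and 29.5 ± 4.2 CPM (SD, n = 3 each), with an edgeR adjusted p of 0.00961. All 327 bp of exon under the row belong to the 3′ untranslated part of the last exon, and 120 bp lie outside the gene. Without sgNT tumour 2 and sgUhrf1 tumour 1 together, the tumours with most skeletal muscle reads, the rise was 1.20 on the log2 scale but missed the threshold (edgeR adjusted p = 0.0748).

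Nr4a1 (chromosome 15, 101254269 to 101274795, plus strand) had 3.36, 5.56 and 9.46 CPM in sgUhrf1 tumours, against 2.53, 0.889 and 1.42 CPM in sgNT tumours. These values rest on 19, 35 and 43 counts in sgUhrf1 tumours and on 16, 6 and 8 counts in sgNT tumours. The groups did not overlap, although sgUhrf1 tumour 1 and sgNT tumour 1 lay close together. The means were 6.12 ± 3.09 and 1.61 ± 0.84 CPM (SD, n = 3 each), with an edgeR adjusted p of 0.0263. The call was lost without sgUhrf1 tumour 3 (log2 fold change 1.46, edgeR adjusted p = 0.0832), without sgNT tumour 2 (1.58, 0.105), without sgNT tumour 3 (1.82, 0.0844), without the pair of tumours with most muscle reads (1.89, 0.0833) and with the replicate number as a block (1.89, 0.0525).

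The Nr4a1 row is the least direct of the 4. Only 68 of its 3542 bp lie in an exon of Nr4a1, at the very end of the 3′ untranslated part (101274723 to 101274790), while 920 bp are intronic and 2554 bp lie outside the gene, so how many of its 127 counts came from the exon cannot be told. Per kb of listed interval the row held 35.9 counts over the 6 tumours, against 2007 for Fos, 923 for Btg2 and 3606 for Dusp1. A row with 3100 of its 6393 bp in Nr4a1 introns and no exon of any gene, listed as Krt80, held 160 counts. That row had 35, 25 and 27 counts in sgUhrf1 tumours, against 37, 18 and 18 counts in sgNT tumours, a log2 fold change of 0.45 ± 0.45 (edgeR adjusted p = 0.452). A row of 83 bp in an Nr4a1 intron, listed as Mir1941, had 7, 6 and 0 counts in sgUhrf1 tumours, against 10, 3 and 10 counts in sgNT tumours, and was under the filter.

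**Figure D2:**
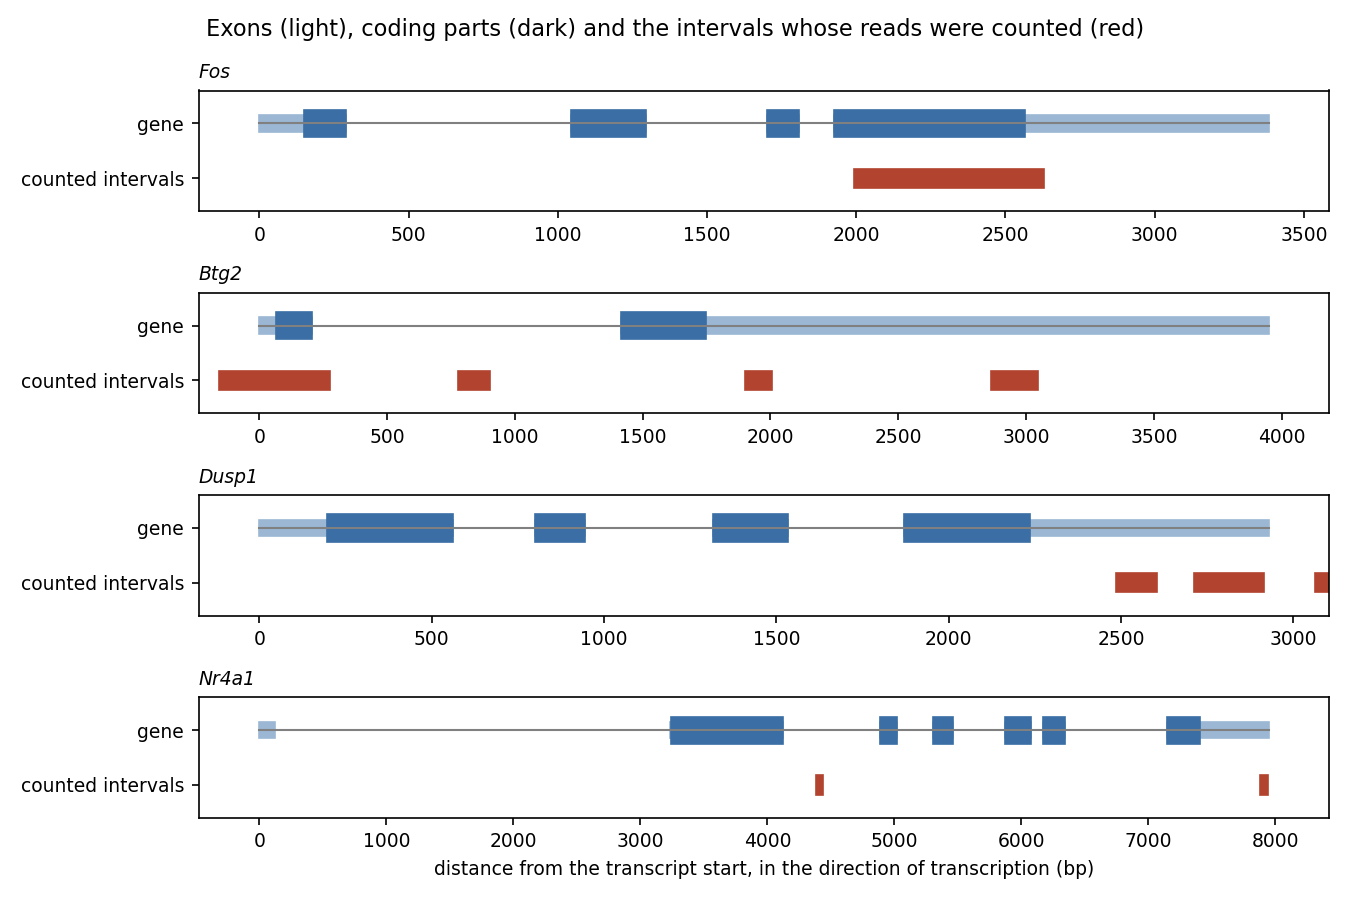
Position of the counted intervals (red, lower track) against the exons (light blue) and coding parts (dark blue) of 1 transcript of each gene, by distance in bp from the transcript start; intervals beyond the plotted window are not drawn. The Fos row lies over the last exon, the Dusp1 row over its 3′ untranslated part, and the Nr4a1 row touches 68 bp at the end of the gene.

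Levels of the members were compared per kb of covered exon. Dusp1 stood at 204 ± 70 CPM per kb in sgUhrf1 tumours and 90.1 ± 12.8 in sgNT tumours, Fos at 144 ± 63 and 55.7 ± 11.7, and Btg2 at 142 ± 41 and 50.7 ± 6.8 (SD, n = 3 each). Fos and Btg2 did not differ beyond their spread in either group. In sgNT tumours Dusp1 lay above both by more than the SD of any of the 3; in sgUhrf1 tumours the difference was within the SD of Dusp1 itself. A read pair is counted when any part of it touches an interval, so short or broken intervals gather more pairs per kb, and Nr4a1 is left out of this order because most of its row is not exon.

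The members did not share a single order of tumours. After centring on its mean over the 6 tumours, Fos was highest in sgUhrf1 tumour 2 (1.32 above its mean in log2 CPM) and Btg2 likewise (1.17), whereas Dusp1 and Nr4a1 were highest in sgUhrf1 tumour 3 (1.03 and 1.56). In sgUhrf1 tumour 2 Dusp1 was at its mean (-0.0045). The profiles of Fos and Btg2 were the closest pair, with a root mean square difference of 0.30 in log2 CPM over 6 tumours, and those of Fos and Nr4a1 the farthest, with 0.80.

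**Figure D3:**
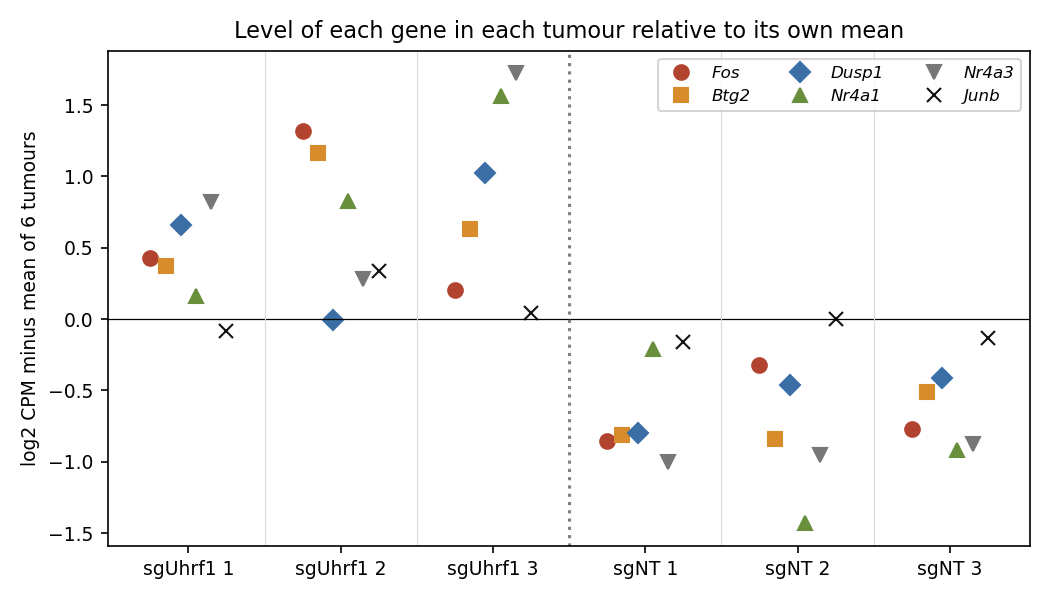
Log2 CPM of the 4 members and of Nr4a3 and Junb in each tumour, minus the mean of the same gene over the 6 tumours; sgUhrf1 tumours are left of the dotted line and sgNT tumours right of it. Fos and Btg2 peak in sgUhrf1 tumour 2, Dusp1, Nr4a1 and Nr4a3 in sgUhrf1 tumour 3, and Junb stays between -0.16 and 0.33.

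Among 2987 candidate genes, the profile closest to that of Fos was that of Ephb2, an ephrin receptor gene (root mean square difference 0.15), then Kcnn4, a potassium channel gene (0.20), and Gclc, a glutathione synthesis gene (0.22). Closest to Btg2 were Mapre2 (0.16), a microtubule end-binding protein gene, Arhgef10l (0.17) and Lmo7 (0.18). Closest to Dusp1 were Grn (0.12), which encodes the lysosomal protein progranulin, Ddx58 (0.13), the RNA sensor RIG-I, and Pik3r1 (0.15), a regulatory subunit of PI3 kinase. Closest to Nr4a1 were Omp (0.15), Per2 (0.27), a circadian clock gene, and Cenpm (0.29), a centromere protein gene. The rows of Mapre2, Arhgef10l, Lmo7 and Omp cover only 79, 91, 59 and 95 bp of exon. The likeness is over 6 tumours and is a description only.

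A wider list of 49 further immediate early genes held 12 with a row of their own that was tested. Of these, 3 rose (Nr4a3, Ier5 and Mcl1) and 2 fell (Fosl1 and Arc), with a median log2 fold change of 0.36 against 0.019 over all rows; 20.2% of all rows rose and 19.7% fell. Nr4a3, the closest relative of Nr4a1 on this list with a row of its own, is covered along all 5987 bp of its exons and is therefore the most direct measure of an NR4A gene here. It had 27.1, 18.6 and 51.0 CPM in sgUhrf1 tumours, against 7.44, 7.71 and 8.15 CPM in sgNT tumours, without overlap. Its log2 fold change was 2.05 ± 0.38 (edgeR adjusted p = 0.00342) and stayed past the threshold in 17 of 17 alternatives, from 1.55 to 2.31.

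Ier5, a regulator of the heat shock factor, had 90.1, 97.8 and 116 CPM in sgUhrf1 tumours, against 22.0, 30.8 and 74.6 CPM in sgNT tumours. The change was 1.25 ± 0.40 (edgeR adjusted p = 0.0323), and sgNT tumour 3 lay nearest to the sgUhrf1 tumours. The call was lost in 6 of 17 alternatives, and leaving out single tumours gave 0.92 to 1.92. Mcl1, a survival gene of the BCL2 family, rose by 0.52 ± 0.17 (adjusted p = 0.0336), a call that was lost in 10 of 17 alternatives. The rows of Ier5 and Mcl1 cover 410 and 683 bp of exon, in rows of which 4.99% and 9.85% lie in those exons.

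Fosl1, another AP-1 subunit and a known target of sustained ERK signalling, moved against Fos. It had 40.0, 35.2 and 35.8 CPM in sgUhrf1 tumours, against 73.5, 57.4 and 106 CPM in sgNT tumours, without overlap, as was so with sgUhrf1 lower for 27.8% of all tested rows. The log2 fold change was -1.09 ± 0.24 (edgeR adjusted p = 0.00773) and stayed past the threshold in 17 of 17 alternatives. Arc, a neuronal activity gene, fell by 1.89 ± 0.64 (adjusted p = 0.0423), with 1.42, 1.90 and 4.84 CPM in sgUhrf1 tumours against 4.59, 7.12 and 18.1 CPM in sgNT tumours; the groups overlapped, and the call was lost in 6 of 17 alternatives.

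Junb, the AP-1 subunit with the most counts on this list, had 1435, 1916 and 1564 CPM in sgUhrf1 tumours, against 1356, 1521 and 1386 CPM in sgNT tumours. Its log2 fold change was 0.20 ± 0.19 (edgeR adjusted p = 0.424), from 0.066 to 0.34 over the alternatives. The remaining members of the list missed the threshold as well. Gem was at 0.79 ± 0.30, the pluripotency and epithelial factor gene Klf4 at 0.69 ± 0.31, Ier2 at 0.46 ± 0.22 and Srf at 0.26 ± 0.34, while Klf10 was at -0.39 ± 0.19 and the kinase gene Sik1 at -0.47 ± 0.26 (edgeR adjusted p from 0.0602 to 0.575).

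**Figure D4:**
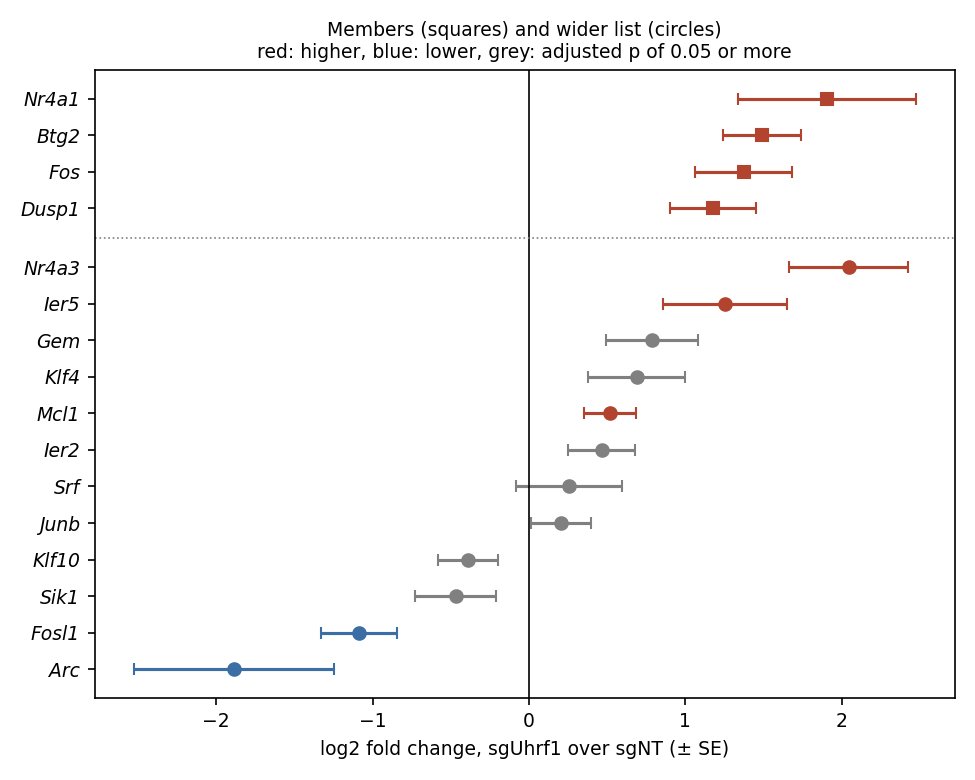
Log2 fold change of sgUhrf1 over sgNT with its SE for the 4 members (squares, above the dotted line) and the 12 tested genes of the wider list (circles); red marks genes higher and blue genes lower at an adjusted p under 0.05, grey the rest. All 4 members lie between 1.18 and 1.90, and the wider list runs from -1.89 for Arc to 2.05 for Nr4a3.

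RNA of the ERK cascade and of its feedback genes was listed as well; it does not measure kinase activity. Of 8 tested genes in the list of ERK feedback and output, 1 rose and 1 fell (median 0.17), where 20.6% of all rows that stand for a named gene rose and 21.5% fell. The ETS factor gene Etv4 rose by 0.60 ± 0.17 (edgeR adjusted p = 0.0234), a call lost in 7 of 17 alternatives, and Rasa1, a RAS inhibitor gene, fell by 2.01 ± 0.50 (0.0126). Of 22 tested MAP kinase and SRF pathway genes 5 rose and 11 fell, with a median of -0.78. The p38 delta gene Mapk13 rose by 6.13 ± 0.58 and the ERK-activated kinase gene Rps6ka1 by 1.93 ± 0.26, while Rps6ka2 fell by 3.76 ± 0.50 and Elk3, a partner of SRF, by 1.14 ± 0.20 (adjusted p from 0.000176 to 0.00248). The Elk3 row covers only 71 bp of exon. Those of Mapk13, Rps6ka1 and Rps6ka2 cover 263 of 3150, 282 of 4258 and 293 of 9978 bp. Rps6ka2 had 4, 5 and 3 counts in sgUhrf1 tumours, against 41, 97 and 53 counts in sgNT tumours.

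The NF-kB, p53 and glucocorticoid lists each hold 5 or fewer tested genes and are read against the same shares of named genes, 20.6% higher and 21.5% lower. Of 5 tested NF-kB genes 4 rose and 1 fell (median 1.12). Nfkbiz rose by 1.96 ± 0.27, Relb by 1.12 ± 0.20 and the apoptosis inhibitor gene Birc3 by 1.04 ± 0.19, while Nfkb1 fell by 0.79 ± 0.21 (edgeR adjusted p from 0.000834 to 0.0173). Of 5 tested p53 target genes, a group to which Btg2 also belongs, 2 rose and 0 fell (median 0.99). Cdkn1a at 1.05 ± 0.40, Bax at 0.64 ± 0.23 and Trp53inp1 at 0.28 ± 0.23 missed the threshold (edgeR adjusted p from 0.0508 to 0.366). The stress cytokine gene Gdf15 averaged 15.4 ± 10.1 CPM in sgUhrf1 tumours and 4.32 ± 0.65 CPM in sgNT tumours (SD, n = 3 each), and the repair gene Ercc5 rose by 0.99 ± 0.24 (adjusted p = 0.0190 and 0.0111). The call of Gdf15 was lost in 5 of 17 alternatives, among them without sgUhrf1 tumour 1 (1.19), and that of Ercc5 in 2 of 17. Of the glucocorticoid list 2 were tested and both fell, Klf9 by 1.98 ± 0.30 and Pdk4 by 2.76 ± 0.64 (0.00138 and 0.00888).

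Genes that respond to heat and to loss of oxygen were examined because handling of tissue can induce immediate early genes. The heat shock list, with 6 tested genes of 20, had 1 higher, 2 lower and a median of 0.017. Among rows that stand for a named gene, 20.6% were higher and 21.5% lower. Hsf1, the heat shock factor gene, rose by 0.51 ± 0.18 (edgeR adjusted p = 0.0459). The chaperone genes Hspa4 and Hspa4l fell, at -0.77 ± 0.16 and -2.55 ± 0.29 (0.00521 and 0.000410). Their rows cover 1468 of 5528 and 234 of 11792 bp of exon. Hspe1 at 0.31 ± 0.28, Chordc1 at 0.47 ± 0.27 and Hsph1 at -0.28 ± 0.24 were not called. The call of Hsf1 was lost in 10 of 17 alternatives. The summed level of the heat shock list was 850 to 1256 CPM in sgUhrf1 tumours and 1049 to 1159 CPM in sgNT tumours. The most inducible chaperone genes, Hspa1a, Dnajb1 and Hspb1, had no row of their own and were not analysed here, and the Dnaja1 row, with 1 count, covers 74 of 8629 bp of exon, so it does not measure that chaperone gene. Of the hypoxia list 6 of 25 were tested, and 2 rose and 1 fell, read against the same shares. The vasodilator gene Adm rose by 1.40 ± 0.33 and the hexokinase gene Hk2 by 1.04 ± 0.24 (edgeR adjusted p = 0.00904 and 0.00970). Pdk1, a kinase that holds back mitochondrial glucose use, fell by 2.04 ± 0.33 (0.00178). The rows of Adm, Hk2 and Pdk1 cover 619 of 1619, 149 of 5969 and 102 of 7779 bp of exon. The call of Hk2 was lost in 3 of 16 alternatives. The hypoxia sum was 194 to 338 CPM in sgUhrf1 tumours and 249 to 403 CPM in sgNT tumours. The time to freezing or lysis is not given, and the part of tissue handling in the rise of the members was not tested.

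Markers of host cells moved with the members in part. Counts of genes called are read against the shares of all rows that stand for a named gene, 20.6% higher and 21.5% lower. Among the T cell rows, those of Cd8b1 and Lck cover 127 and 204 bp of exon, 2.98% and 3.03% of their length. Of 5 tested T cell genes 5 rose (median 2.95), among them Cd8b1 by 3.76 ± 0.51, Lck by 3.29 ± 0.62, Zap70 by 2.95 ± 0.54 and Lat by 2.70 ± 0.40 (edgeR adjusted p from 0.000839 to 0.00353), with sums of 375 to 740 CPM in sgUhrf1 tumours and 242 to 279 CPM in sgNT tumours. Thy1, which fibroblasts also express and which is also on the fibroblast list, made up most of these sums; without it they were 83.3 to 215 CPM in sgUhrf1 tumours and 7.26 to 24.99 CPM in sgNT tumours. The sum was highest in sgUhrf1 tumour 3, where Dusp1, Nr4a1 and Nr4a3 peaked, and lowest of its group in sgUhrf1 tumour 2, where Fos and Btg2 peaked. This order was not particular to T cell genes. In sgUhrf1 tumours 1, 2 and 3 the heat shock sums were 1061, 850 and 1256 CPM. Those of p53 targets were 409, 383 and 639 CPM, and those of monocytes and macrophages 734, 278 and 957 CPM. Other sums were highest in sgUhrf1 tumour 2, as Fos and Btg2 were. In sgUhrf1 tumours 1, 2 and 3 those of ERK feedback and output were 670, 812 and 643 CPM. Lung epithelium had 1693, 2882 and 2165 CPM, and the NF-kB list 513, 627 and 618 CPM. What sets these orders was not tested. The neutrophil list had 2 of 3 tested genes higher, Csf3r by 3.46 ± 0.35 and Il1r2 by 3.14 ± 0.57, with sums of 90.1 to 154 CPM and 7.41 to 17.5 CPM in the same order of groups. Of the T cell markers with a row, Cd6 was at 0 counts, but its row covers only 284 of 7968 bp of exon and does not measure that gene.

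The other cell markers were mixed, and their counts are read against the same shares of named genes, 20.6% higher and 21.5% lower. Of 5 monocyte and macrophage genes 0 rose and 1 fell, Mertk by 1.64 ± 0.58 (edgeR adjusted p = 0.0492; lost in 7 of 16 alternatives, and 54 bp of exon under the row), with sums of 278 to 957 CPM in sgUhrf1 tumours and 504 to 789 CPM in sgNT tumours. Of 10 fibroblast and matrix genes 1 rose, the same Thy1 row, and 4 fell, among them Fn1 at -2.11 and Fbln2 at -3.07. Col1a2, covered along all 12426 bp of its exons, was not called, at 0.57 ± 0.39. Also not called were Dcn at 0.41, Postn at 0.06, Col5a2 at -0.21 and Pdgfrb at -1.41. Of 5 endothelial genes 0 passed, with Vwf at -1.16 ± 0.43 and Pecam1, on a row with 93 bp of exon, at 0.82 ± 0.36. Skeletal muscle sums ran from 493 to 1271 CPM in sgUhrf1 tumours and from 166 to 941 CPM in sgNT tumours, highest in sgUhrf1 tumour 1 and sgNT tumour 2. Tpm2, the 1 of 4 tested genes that rose, made up most of each sum except that of sgNT tumour 2. It had 834, 465 and 661 CPM in sgUhrf1 tumours, against 183, 429 and 160 CPM in sgNT tumours. Ckm, which was not called, had 186, 11.9 and 18.0 CPM in sgUhrf1 tumours, against 2.38, 243 and 0.177 CPM in sgNT tumours. In the skin list Ivl rose and Lor fell. Of the red blood cell list 0 genes were tested, with Hbb-bt and Slc4a1 at 0. Their rows cover 56 of 703 and 1308 of 4891 bp of exon, so the 0 does not show that their RNA was absent. The lung epithelial list had 3 of 4 tested genes higher, with sums of 1693 to 2882 CPM and 157 to 439 CPM in the same order of groups. The part of any of these cell types in the rise of the members was not tested.

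Under the alternatives the members were read against other backgrounds. The share of rows higher in sgUhrf1 tumours was 20.5% with DESeq2 size factors, 17.6% with upper-quartile factors, 21.7% in DESeq2 and 19.8% in limma-voom. It was 9.76% with no filter, 18.3% with a stricter one, 20.3% with robust dispersion, 20.5% with rows of a gene summed and 17.5% with the replicate number as a block. Leaving out sgUhrf1 tumour 1, 2 or 3 gave 16.3%, 18.4% and 17.4%, leaving out sgNT tumour 1, 2 or 3 gave 17.9%, 12.8% and 14.5%, and leaving out the pair with most muscle reads gave 10.2%. All 4 members passed in most of these; 3 passed under the block and without sgUhrf1 tumour 3, sgNT tumour 2 or sgNT tumour 3, and 2 passed without the pair.

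**Figure D5:**
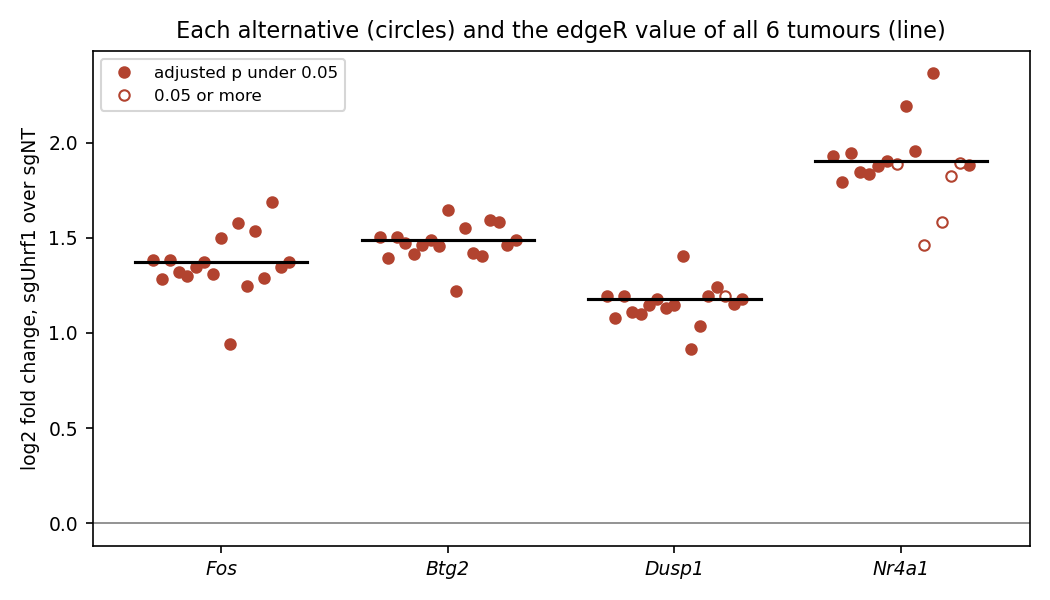
Log2 fold change of sgUhrf1 over sgNT of each member under each alternative (circles; filled where the adjusted p was under 0.05, open where it was not) and in edgeR with all 6 tumours (line). All values are above 0; Fos and Btg2 are filled in 17 of 17 alternatives, Dusp1 in 16 of 17 and Nr4a1 in 11 of 16.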

How the data were processed

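RNA of 6 tumours (3 sgUhrf1, 3 sgNT, numbered as biological replicates in the labels) was measured from poly(A) RNA by paired-end sequencing. The deposited unit is the count, whole read pairs per listed gene, with a table for each tumour. The submitters' processing notes name the tools fastp, STAR and featureCounts and the build GRCm38; per the file headers, featureCounts 2.0.1 counted exons by gene name, without strand, on the GENCODE vM26 annotation, which is on another build, GRCm39.

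Rows were therefore named by position: a row took the name of a gene where its intervals, as listed, touch exons of a single GENCODE vM21 gene and cover at least 50 bp of them, small RNA genes set aside; the most-counted row stood for a gene. This named 13432 rows with 41.4% of counts. Without strand, antisense and intronic reads inside an interval are not separated.

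All rows were tested with edgeR 4.0.16 (R 4.3.3; TMM, filterByExpr with minimum count 10 and total 15, quasi-likelihood F test, Benjamini-Hochberg over 10503 rows), and the code was tested on simulated data. DESeq2 1.42.0 and limma 3.58.1 were alternatives, with other scalings, filters and left-out tumours. Log2 profiles used a prior count of 2, and likeness was computed over genes averaging 3 or more in log2 CPM. Genes named are the members, the tested genes of the wider list, up to 4 called genes per other list (or up to 2 where none passed) and the 3 nearest profiles per member. Some further genes of the lists are given as values. Members and lists were chosen with earlier results of these data known. Same-group tumours differed by more than sampling noise (chi-square per degree of freedom 19.0 to 59.3).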

Additional observations from a re-analysis of the deposited data

How the results depend on the processing

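The rises of Fos and Btg2 kept their direction and stayed past the threshold in 17 of 17 alternatives, between 0.94 and 1.69 and between 1.22 and 1.65 on the log2 scale. Leaving out single tumours gave 0.92 to 1.40 for Dusp1 and 1.46 to 2.36 for Nr4a1. Without sgNT replicate 2 and sgUhrf1 replicate 1 together, 1865 rows passed (1094 higher, 771 lower), with 2 of the 4 members (Dusp1 at 1.20 and Nr4a1 at 1.89 missed) and 2 genes of the wider list; 2 fewer samples enter that fit. Leaving out single tumours gave 2690 to 3928 rows (1431 to 2020 higher, 1259 to 1908 lower) and 2 to 3 of the 12 tested genes of the wider list. Counting shared rows, an alternative chosen after seeing the data, gave 9 of 19 tested genes (5 higher, 4 lower). In the fit used for that count, 39.9% of all rows passed. Without sgNT replicate 2 alone, 2690 rows passed. The Nr4a1 row is under 200 bp of exon, so it has no value at that minimum. Srf ran from -0.043 (without sgNT replicate 1) to 0.68 when single tumours were left out, and the cause was not tested. Pecam1 was at -0.80 with at least 200 bp, where another row stands for it, because its main row covers only 93 bp of exon. Upper-quartile scaling put the median of all rows at -0.077, against 0.019 with TMM, and turned no member. With the replicate number as a block, Nr4a1 was at 1.89 (adjusted p = 0.0525), 3645 rows passed and no other member lost its call. Deviations of same-numbered tumours correlated at -0.079, -0.021 and 0.050, so no pairing by number was detected. With 3 tumours per group these values cannot exclude a shared collection or processing. Over 51 other named genes, 784 values kept their call, 66 lost it and 9 gained it. Depth limits Nr4a1 most, at 127 counts in all.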

Other observations

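Several immediate early genes lie only in rows shared with other genes, and how such a row divides among its genes cannot be told. The row over Jun and Mysm1 had 154, 173 and 141 counts in sgUhrf1 tumours, against 105, 132 and 75 counts in sgNT tumours, a log2 fold change of 0.79 ± 0.24 (edgeR adjusted p = 0.0300). The row over Plk3, Best4-ps, Kif2c and Tctex1d4 rose by 1.27 ± 0.25 (0.00457). The row over Ccn1, the gene of a secreted matrix protein induced by YAP and SRF, and Gm17501 fell by 1.05 ± 0.33 (0.0329), and the row over Homer1, Gm47075 and Gm2076 by 1.52 ± 0.43 (0.0207). The row over Ppp1r15a and Tulp2 was at 0.76 ± 0.28 and that over Per1 and 3 other genes at 0.68 ± 0.27, both short of the threshold (edgeR adjusted p = 0.0569 and 0.0710). The row over Fosb and Gm26802 had 17, 63 and 171 counts in sgUhrf1 tumours, against 76, 84 and 106 counts in sgNT tumours, so that the sgUhrf1 tumours lay on both sides of the sgNT tumours (0.21 ± 0.70, edgeR adjusted p = 0.834).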
